A study of Homo sapiens with 4 samples.

Results

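The oncogene MYC, 4 genes that lie near it on chromosome band 8q24 (PVT1, TRIB1, FAM84B and NSMCE2) and 5 proteins that share its DNA-binding network (MAX, MXD1, MXI1, MNT and MGA) were followed through 4 human acute myeloid leukemia cell lines. The 10 genes were taken by symbol from the deposited tables, all 10 were found, and they stand among 21865 symbols in all. One RNA library each was sequenced from HL60, a promyelocytic line known for amplification of 8q24, THP-1 and MonoMac-1, monocytic lines known to carry the MLL-AF9 fusion, and KG1a, an immature line. All were grown in the same serum-containing medium without a stated treatment, although the THP-1 title has a suffix, "tr", whose meaning is not given. Each line is a single long-cultured tumour clone and had 1 library, so the values below describe these 4 libraries and have no replicate check. The amplification, the fusion and the lineages are general knowledge about these lines and were not read from the sample labels.

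MYC is a basic helix-loop-helix leucine zipper factor that binds DNA only as a dimer with MAX and raises the transcription of genes for ribosome assembly, nucleotide synthesis and cell division. MXD1, MXI1 and MNT also pair with MAX on the same DNA element and recruit the SIN3 corepressor, and MGA is a large MAX partner that also has a T-box domain and acts in a Polycomb complex. In myeloid cells MYC is high in dividing precursors and falls as they mature, whereas MXD1 rises with maturation. Of the genes beside MYC, PVT1 is a long noncoding RNA gene, TRIB1 a pseudokinase that directs the myeloid factor CEBPA to degradation through the ligase COP1, and NSMCE2 a SUMO ligase of the SMC5/6 genome-maintenance complex. The role of FAM84B is less well defined.

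The element that MYC-MAX and MXD-MAX dimers share is the palindrome CACGTG, which reads alike on both strands. In the RefSeq promoter table (GRCh38.p14, windows of 300 bases from 250 before to 50 after a gene's start) 5 of the 10 members had an entry, and of these MNT held the letters CACGTG while MAX, MXD1, MXI1 and MGA did not. Of all 35116 windows 7.26% held them, and of the 8925 measured genes with an entry 12.8% held them in at least 1 window; 1 of 5 members is too few to set against that share. The stretch of MNT, with that of SRM (spermidine synthase, a MYC target described further on), is shown to place the element, in capitals, at 193 bases before the MNT start (chr17:2401208-2401293, minus strand) and 199 bases before the SRM start (chr1:11060172-11060257, minus strand). A match is a string of letters, and binding was not measured.
MNT: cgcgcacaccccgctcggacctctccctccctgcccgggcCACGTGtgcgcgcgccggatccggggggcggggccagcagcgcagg
SRM: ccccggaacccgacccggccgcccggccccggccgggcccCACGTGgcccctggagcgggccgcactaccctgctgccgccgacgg

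Levels are given as RPKM, the authors' abundance scaled to gene length and to the size of the library, so that genes of different length can be set side by side. Genes that reached 1 RPKM in at least 1 line are called measured, which held for 12976 symbols and for all 10 members. Library totals ran between 6.04 gigabases on genes in THP-1 and 13.7 in MonoMac-1. Lineage markers followed the lineages named above only in part. The granule enzyme gene MPO stood at 4610 RPKM in HL60, against 3.10 in KG1a, 95.2 in MonoMac-1 and 4.78 in THP-1. The other 4 granule genes went the other way: ELANE, PRTN3, AZU1 and CTSG stood at 76.6, 615, 175 and 120 RPKM in HL60, all lower than in MonoMac-1 (1313, 1558, 1536 and 2410) and THP-1 (1042, 1624, 2033 and 1789). All 6 monocyte markers (LYZ, CD68, IRF8, CD14, CSF1R and MPEG1) were higher in MonoMac-1 and THP-1 than in HL60 and KG1a. IRF8, for example, stood at 163 and 231 RPKM in the monocytic lines, against 0.599 in HL60 and 0.0216 in KG1a. The monocyte antigen CD14 was low, at 4.13 in MonoMac-1 and 1.28 in THP-1, against 0.0787 in HL60 and 0.0756 in KG1a. Of the progenitor genes, CD34 (494 RPKM) and GATA2 (48.2) were highest in KG1a, PROM1 stayed under 1 RPKM in all lines, and KIT was lowest in KG1a (0.00634) and highest in THP-1 (9.06). Of the T and NK cell markers CD3E, CD7, IL32 and GZMB, the first 3 were highest in KG1a (14.1, 21.5 and 102 RPKM) and GZMB stayed under 0.1 in all lines; their part in the KG1a values below was not tested. Genes abundant in KG1a and near 0 in both monocytic lines lay in HL60 at a median of 2.71% of their KG1a level (19 genes), and taking that share of KG1a out of HL60 turned the direction of 0 members.

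One feature of the HL60 library bears on every chromosome 8 gene described here. Of 186 chromosome 8 genes above 5 RPKM in every line, 168 were lowest in HL60 and 1, MYC, was highest there. Outside the interval from NSMCE2 to PVT1, 184 such genes had a median HL60 level of 0.405 times the mean of the other 3 lines, against 1.02 times for 6091 genes on other chromosomes, and 0 of the 184 lay above that mean. The median level of chromosome 8 relative to the 4-line average was -0.94 on the log2 scale in HL60, whereas the other chromosomes lay between -0.18 and 0.28 in that line. Chromosome 8 lay at 0.42 in KG1a, 0.32 in MonoMac-1 and 0.21 in THP-1. Copy number was not measured, and neither it nor the processing of the HL60 table was tested as a source of this shift. All chromosome 8 levels in HL60 are therefore given as deposited, MYC and TRIB1 included, and the part of the shift in the values of the 5 genes was not tested.

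**Figure D1:**
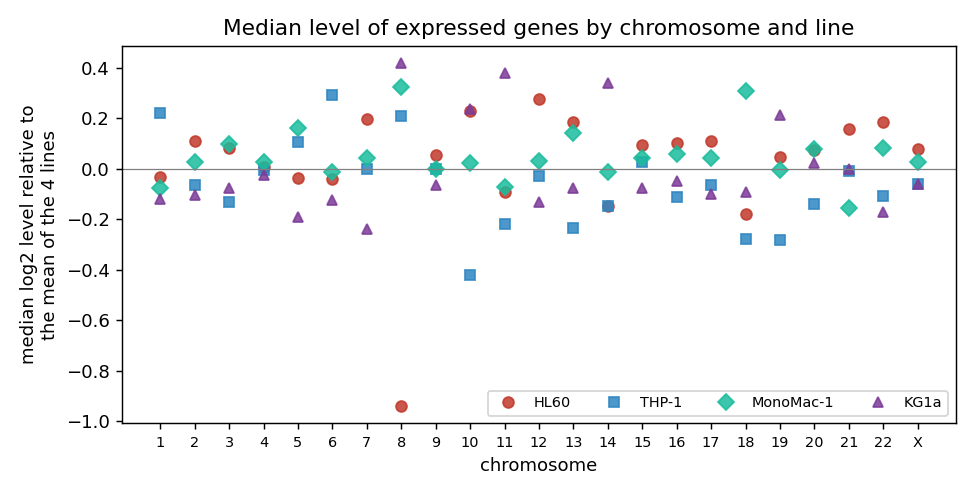
Median log2 level of genes above 5 RPKM in every line, relative to each gene's mean over the 4 lines (vertical axis), by chromosome (horizontal axis), with 1 marker per line. The HL60 marker of chromosome 8 lies at -0.94, apart from all other markers, which lie between -0.42 and 0.42.

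MYC RNA was abundant in all 4 lines and far highest in HL60. MYC (chromosome 8, 128748315 to 128753680, hg19) stood at 596 RPKM in HL60, against 141 in KG1a, 137 in MonoMac-1 and 113 in THP-1. The other 3 lines lay close together, and HL60 stood apart from all of them. The HL60 level was 4.22 times that of the next line, KG1a (95% counting interval 4.16 to 4.29), 4.35 times that of MonoMac-1 and 5.28 times that of THP-1; such intervals cover counting error only, on fragment equivalents of 200 bases. Among measured genes MYC ranked 86 in HL60, 323 in KG1a, 424 in MonoMac-1 and 482 in THP-1.

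TRIB1, 2.31 Mb from MYC, was the other neighbour that was highest in HL60, and on the log2(RPKM + 1) scale it varied most of the 10 genes. TRIB1 (chromosome 8, 126442563 to 126450644) stood at 74.3 RPKM in HL60, against 19.7 in KG1a, 8.22 in MonoMac-1 and 1.26 in THP-1. No 2 lines had overlapping counting intervals: HL60 lay at 3.77 times KG1a (3.64 to 3.90), KG1a at 2.40 times MonoMac-1 (2.28 to 2.52) and MonoMac-1 at 6.52 times THP-1 (5.55 to 7.70). The range of TRIB1 over the lines, 5.06 on the log2(RPKM + 1) scale, ranked 266 among all measured genes, and that of MYC, 2.39, ranked 2064.

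A gene was counted as set apart in HL60 when its level was at least 2 times that of every other line, or at most 0.5 times that of every other line. MYC and TRIB1 were the 2 of 10 members higher by this rule, where 2.99% of all measured genes (388) were, and 0 members were lower, where 8.54% (1108) were. After quantile normalization these counts were 526 and 904 genes, with 2 members higher and 1 lower. With the KG1a share taken out of HL60 they were 383 and 1423, again with 2 members higher and 1 lower. PVT1 lay just short of the lower rule, at 0.503 times MonoMac-1. On chromosome 8 the rule held for 5 of 430 measured genes on the higher side and 183 on the lower. The other 3 higher genes, named after their values were seen, were CA8, SLC7A2 and RNF5P1, at 67.6 Mb from MYC or further. By limma, with the 3 other lines giving the spread and the lone HL60 library assumed to vary like them, MYC differed by 2.19 ± 0.38 (log2(RPKM + 1), SE; adjusted p = 0.898, unadjusted p = 0.00312) and was higher in HL60 than in 3 of 3 lines. TRIB1 differed by 3.32 ± 1.31 (adjusted p = 0.960, unadjusted p = 0.0587), also above 3 of 3 lines. With this fit 0 of 12976 genes passed an adjusted p of 0.05 in either direction. At an unadjusted p of 0.05 there were 246 higher (1.9%) and 421 lower genes (3.24%), among them 1 member, MYC.

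**Figure D2:**
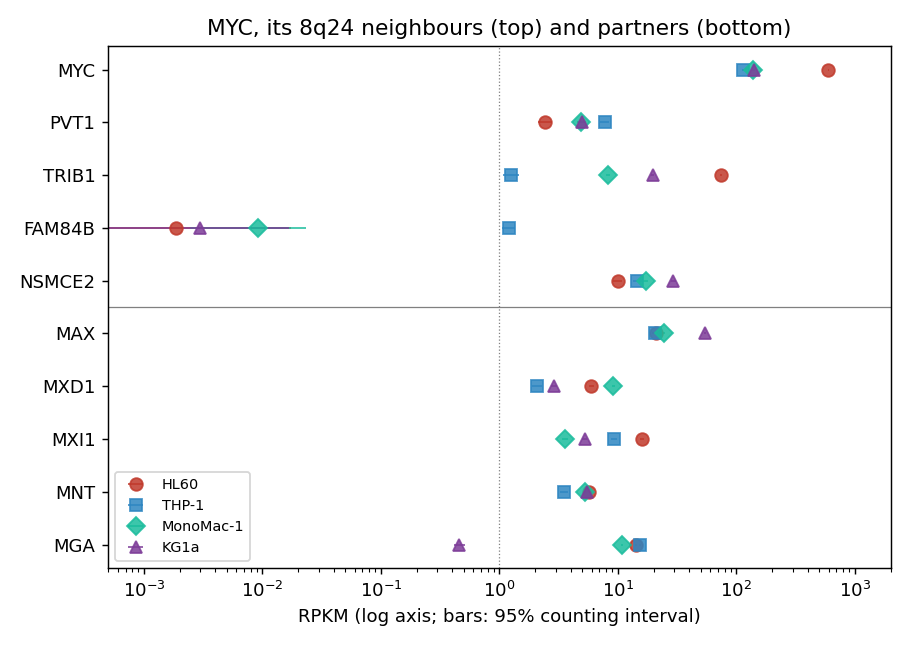
RPKM of the 10 members (log axis) in HL60, THP-1, MonoMac-1 and KG1a, with bars for the 95% counting interval and a dotted line at 1 RPKM; the genes of 8q24 are above the horizontal line and the MAX network below it. HL60 lies furthest right for MYC (596) and TRIB1 (74.3) and furthest left for PVT1 (2.44) and NSMCE2 (9.96), and KG1a lies far left for MGA (0.459).

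PVT1 and NSMCE2 were lowest in HL60, a position that 26.2% of all measured genes took and 75.1% of those on chromosome 8, while FAM84B was near 0 in 3 lines that counting cannot order. PVT1 (chromosome 8, 128806779 to 129113499), which starts 0.0585 Mb beyond the MYC start, stood at 2.44 RPKM in HL60, against 4.94 in KG1a, 4.85 in MonoMac-1 and 7.80 in THP-1. HL60 lay below the other lines beyond counting error, at 0.493 times KG1a (0.421 to 0.576), while MonoMac-1 and KG1a did not differ beyond their intervals. HL60 was thus highest for MYC and lowest for PVT1, and MYC was 245 times PVT1 in that line, against 28.6 times in KG1a, 28.3 in MonoMac-1 and 14.5 in THP-1.

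NSMCE2 (chromosome 8, 126104083 to 126379367) stood at 9.96 RPKM in HL60, against 29.5 in KG1a, 17.2 in MonoMac-1 and 14.6 in THP-1. HL60 was lowest and KG1a highest, at 0.338 times KG1a for HL60 (0.308 to 0.370). Among 6 measured partners of the same complex, all encoded elsewhere, 1 was lowest in HL60 (NDNL2), 1 was highest (NSMCE1), 0 met the 2-fold rule in either direction, and their median difference was 0.07 on the log2(RPKM + 1) scale, against -0.10 for all measured genes.

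FAM84B (chromosome 8, 127564683 to 127570711) was above 1 RPKM only in THP-1, at 1.20 RPKM (1.05 to 1.36). It stood at 0.00185 RPKM in HL60, 0.00913 in MonoMac-1 and 0.00299 in KG1a. The values of these 3 lines rested on 0.5, 3.94 and 1 fragment equivalents, so no fold is given between them. As a ratio, THP-1 lay at 131 times MonoMac-1 (50.2 to 492), more than the widest TRIB1 ratio of 58.9, so the order of the 2 genes by spread depends on the added 1 RPKM. Its paralogue FAM84A stayed under 1 RPKM in every line.

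The HL60 values of chromosome 8 were also multiplied by 2.52, the size of the median chromosome-wide shift (an alternative added once the values were known). Genes highest in HL60 must then stand further apart, and genes lowest there must move up, so these directions were fixed. Outside the interval the log2 level of HL60 over the mean of the others ran from -2.23 at the 5th percentile to -0.50 at the 95th. A single factor is thus no exact correction for each gene. MYC then reached 1501 RPKM in HL60, 10.6 times the next line, and TRIB1 187 RPKM, 9.47 times the next line. PVT1 came to 6.13 RPKM in HL60, within the 4.85 to 7.80 of the other lines, and NSMCE2 to 25.1, within 14.6 to 29.5. FAM84B stayed under 0.005 RPKM in HL60.

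The surroundings of MYC show the contrast between the 2 high genes and the rest. The 5 measured genes in the interval from NSMCE2 to PVT1 are the 5 chromosome 8 members, and the other 6 rows listed there (4 microRNA genes within PVT1, POU5F1B and LOC727677) stayed under 1 RPKM. In the 5 Mb below the interval 17 of 20 measured genes were lowest in HL60 and 0 were highest, with a median difference of -1.26 on the log2(RPKM + 1) scale. In the 5 Mb above it 7 of 9 were lowest and 0 highest, with a median of -1.48. The rest of chromosome 8 (396 genes) had a median of -1.14, so that the flanks lay near the level of the whole chromosome. SQLE, a cholesterol synthesis enzyme 2.74 Mb from MYC, stood at 55.6 RPKM in HL60, against 156 in KG1a, 166 in MonoMac-1 and 88.8 in THP-1. FAM49B, 2.11 Mb away on the other side, stood at 26.1 RPKM in HL60, against 61.0 in KG1a, 81.7 in MonoMac-1 and 74.8 in THP-1.

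**Figure D3:**
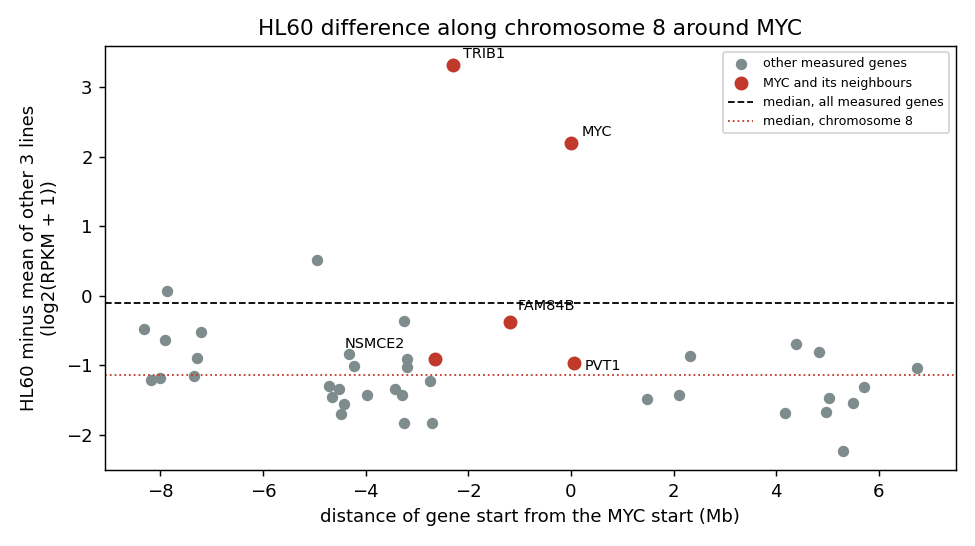
Difference of HL60 from the mean of the other 3 lines on the log2(RPKM + 1) scale (vertical axis) for measured genes around MYC, by distance of their start from the MYC start in Mb (horizontal axis). TRIB1 (3.32) and MYC (2.19) lie apart from all other plotted genes, of which ZHX2 (0.51) is highest; dashed and dotted lines mark the medians of all measured genes (-0.10) and of chromosome 8 (-1.15).

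The MAX-network genes lie on chromosomes other than 8 and followed no common order over the lines. MAX (chromosome 14, 65472892 to 65569227), the obligate partner of MYC, stood at 54.7 RPKM in KG1a, against 21.1 in HL60, 24.6 in MonoMac-1 and 20.5 in THP-1. KG1a was at least 2.22 times each other line (2.15 to 2.30 over MonoMac-1), while HL60 and THP-1 did not differ beyond their counting intervals. The rule of 2-fold above every other line held for MAX alone of the 10 members in KG1a and for 9.93% of all measured genes. The ratio of MYC to MAX in RPKM was 28.3 in HL60, against 2.58 in KG1a, 5.59 in MonoMac-1 and 5.52 in THP-1.

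MGA (chromosome 15, 41952610 to 42062141) was nearly absent from KG1a. It stood at 0.459 RPKM in KG1a (0.411 to 0.510, on 337 fragment equivalents), against 14.1 in HL60, 10.9 in MonoMac-1 and 15.3 in THP-1. The KG1a level was 0.0421 times that of MonoMac-1 (0.0377 to 0.0469), the nearest line. Among the members MGA alone was at least 2-fold below every other line in KG1a, a position that 11.2% of all measured genes took. Its range over the lines, 3.48 on the log2(RPKM + 1) scale, came second among the members after TRIB1.

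MXI1 and MXD1 were highest in different lines, and MNT varied little. MXI1 (chromosome 10, 111967363 to 112047123) stood at 15.9 RPKM in HL60, against 5.24 in KG1a, 3.58 in MonoMac-1 and 9.23 in THP-1, and exceeded the next line by 1.72 times (1.61 to 1.84). MXD1 (chromosome 2, 70142203 to 70170076) stood at 9.18 RPKM in MonoMac-1, against 5.94 in HL60, 2.07 in THP-1 and 2.88 in KG1a. THP-1 and MonoMac-1, both monocytic, thus had the lowest and the highest MXD1 level. MNT (chromosome 17, 2287354 to 2304258) had the smallest log2 range of the 10 genes, with 5.76 RPKM in HL60, 5.50 in KG1a, 5.33 in MonoMac-1 and 3.51 in THP-1; THP-1 was lowest beyond counting error, while HL60 and KG1a did not differ beyond it (ratio 1.05, 0.973 to 1.13). Summed over MXD1, MXI1, MNT and MGA the level was 41.7 RPKM in HL60, against 14.1 in KG1a, 28.99 in MonoMac-1 and 30.1 in THP-1.

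The limma differences of HL60 from the other lines were 1.35 ± 0.63 for MXI1, 1.21 ± 1.53 for MGA, 0.49 ± 0.86 for MXD1, 0.24 ± 0.52 for MNT and -0.50 ± 0.66 for MAX (log2(RPKM + 1), SE; adjusted p = 0.960 for each). None passed the threshold. Single libraries decided several of these values: without KG1a the difference was 0.12 for MGA and -0.084 for MAX, and without THP-1 it was 0.14 for MXD1, 0.075 for MNT and -0.0060 for FAM84B, whereas without MonoMac-1 that of MXD1 was 1.01. PVT1 differed by -0.97 ± 0.54, NSMCE2 by -0.91 ± 0.53 and FAM84B by -0.38 ± 0.77 in the same fit, with the same adjusted p.

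The MYC paralogues were each high in a different line. MYCN, a MYC paralogue of neural and progenitor cells, stood at 33.1 RPKM in KG1a, against 0.892 in HL60, 0.0192 in MonoMac-1 and 0.00552 in THP-1, and the HL60 value was 0.0270 times that in KG1a, near the 2.71% at which KG1a genes lay in HL60. MYCL1, another paralogue, stood at 8.90 RPKM in THP-1, with 1.55 in MonoMac-1 and 0.0620 in HL60, and was listed at 0 in KG1a. MYCN made up 19.0% of the summed RPKM of MYC, MYCN and MYCL1 in KG1a, and MYCL1 7.31% in THP-1, whereas in HL60 both stayed under 1%. MXD3 was highest in KG1a (16.1 RPKM) and MXD4 in MonoMac-1 (26.5 RPKM). Of the 6 measured genes of this list 1 (MLX) was highest and 2 were lowest in HL60, and 0 met the 2-fold rule. Of 13 measured genes of the SIN3 and NCOR corepressor complexes 0 met it, and their median difference was -0.0021.

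Counted over the 10 members, each line was set apart for few of them. By the 2-fold rule THP-1 was above every other line for 1 member, FAM84B (4.82% of all measured genes), and below for 1, TRIB1 (4.4%). MonoMac-1 was above for 0 members (4.99%) and below for 0 (4.06%). By any margin HL60 was highest for 4 members (MYC, TRIB1, MXI1 and MNT; 23.1% of all genes), THP-1 for 3 (PVT1, FAM84B and MGA; 21%), KG1a for 2 (NSMCE2 and MAX; 31%) and MonoMac-1 for 1 (MXD1; 24.9%). THP-1 was lowest for 5 members (MYC, TRIB1, MAX, MXD1 and MNT), where 23.4% of all genes were. In these counts MNT in HL60 lay within counting error of KG1a, and MAX in THP-1 within that of HL60. HL60 had the lowest value for PVT1, NSMCE2 and FAM84B, the last of them within counting error of KG1a and MonoMac-1, MonoMac-1 for MXI1 (19.4%) and KG1a for MGA (29.7%).

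**Figure D4:**
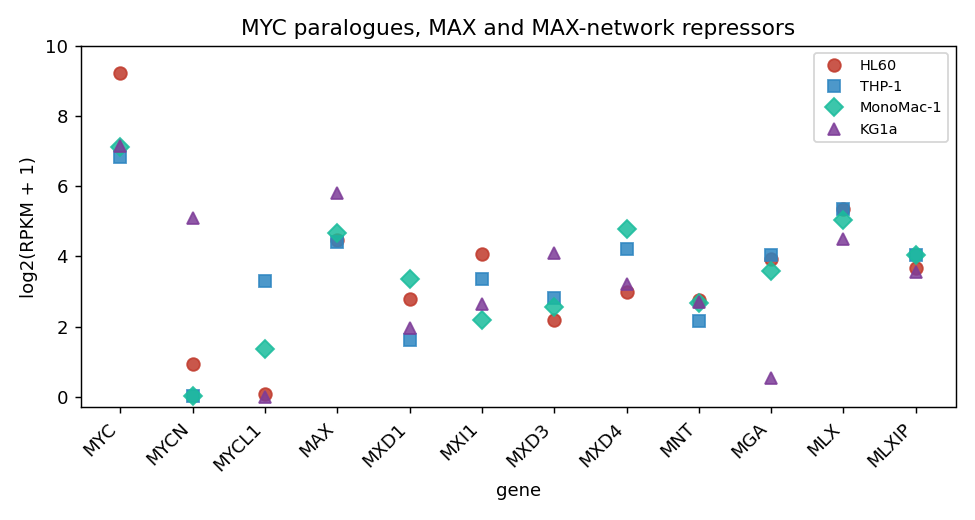
log2(RPKM + 1) of MYC, its paralogues, MAX and further network genes (horizontal axis) in the 4 lines. MYC is highest in HL60 (9.22), MYCN and MAX in KG1a, and MGA is low in KG1a (0.54).

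The listed MYC targets of ribosome biogenesis and metabolism were mostly highest in HL60. Both lists were chosen with earlier results of these data known, so their counts beside those of all genes are a description and not a test. Of 18 measured ribosome biogenesis targets 15 were highest in HL60 and 1 was lowest, where 23.1% and 26.2% of all measured genes were. The median difference of this list was 0.86 on the log2(RPKM + 1) scale, against -0.10 for all genes. By the 2-fold rule 3 were higher (RRP12, NOLC1 and RRP9), 0 lower and 15 neither. RRP12, a ribosome export factor, stood at 34.0 RPKM in HL60, against 6.48 in KG1a, 9.04 in MonoMac-1 and 11.2 in THP-1. NOLC1, a nucleolar phosphoprotein, stood at 136 RPKM in HL60, against 62.7 in KG1a, 38.8 in MonoMac-1 and 39.7 in THP-1. The 1 gene lowest in HL60 was BOP1 on chromosome 8, at 27.99 RPKM in HL60, against 38.8 in KG1a, 42.0 in MonoMac-1 and 47.5 in THP-1.

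Of 11 measured metabolic targets 10 were highest in HL60 (8 after quantile normalization), 1 was lowest, and the median difference was 1.16. Among the 10, LDHA and TFRC were nearly level with the next line, at 1.008 and 1.045 times it. The 1 lowest was PRPS2, at 24.2 RPKM in HL60, against 31.1 in KG1a, 25.95 in MonoMac-1 and 32.8 in THP-1. By the 2-fold rule 3 were higher and 8 neither, and 1 was higher after quantile normalization. SHMT2, the mitochondrial serine hydroxymethyltransferase, stood at 158 RPKM in HL60, against 30.2 in KG1a, 55.5 in MonoMac-1 and 64.2 in THP-1. IMPDH2, which commits purines to guanine nucleotides, stood at 436 RPKM in HL60, against 211 in KG1a, 127 in MonoMac-1 and 144 in THP-1. ODC1, the first enzyme of polyamine synthesis, stood at 249 RPKM in HL60, against 123 in KG1a, 118 in MonoMac-1 and 109 in THP-1. SRM, whose promoter stretch is printed above, stood at 196 RPKM in HL60, against 95.1 in KG1a, 115 in MonoMac-1 and 79.2 in THP-1. With limma 0 members of either list passed after adjustment over all genes.

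The counts of the next lists stand beside 23.1% of all measured genes highest, 26.2% lowest and 2.99% at least 2-fold higher in HL60, and with so few genes they are not read against those shares. Of 6 measured cell cycle targets 3 were highest in HL60, and 1, the phosphatase gene CDC25A, met the 2-fold rule at 36.8 RPKM, against 18.0 in KG1a, 14.3 in MonoMac-1 and 16.5 in THP-1. Of 5 genes known to be repressed by MYC 1 was highest in HL60, GADD45A, and 2 were lowest, CDKN1A and NDRG1, the second of them on chromosome 8. CDKN1A, a cell cycle inhibitor, stood at 2.16 RPKM in HL60, against 3.61 in KG1a, 5.78 in MonoMac-1 and 12.6 in THP-1. GADD45A, a stress-induced growth arrest gene, stood at 29.9 RPKM in HL60, against 9.76 in KG1a, 4.36 in MonoMac-1 and 23.3 in THP-1. Of 17 MYC cofactors and turnover genes 5 were highest in HL60 (29.4%, near the share of all genes), 1 was lowest and 0 met the 2-fold rule. One of the 5, RUVBL2, an ATPase of chromatin complexes, stood at 212 RPKM in HL60, against 122 in KG1a, 136 in MonoMac-1 and 112 in THP-1. Of the 5 paralogues and partners of TRIB1, TRIB3, a stress-induced pseudokinase, met it at 57.2 RPKM in HL60, against 5.19 in KG1a, 15.9 in MonoMac-1 and 18.1 in THP-1. CEBPA, whose protein TRIB1 helps to degrade, stood at 105 RPKM in HL60, against 13.7 in KG1a, 159 in MonoMac-1 and 185 in THP-1. The 2 monocytic lines, lowest for TRIB1, were highest for CEBPA, but HL60, with more TRIB1 than KG1a, also had more CEBPA. These are RNA levels, CEBPA protein was not measured, and a link between the 2 genes was not tested.

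**Figure D5:**
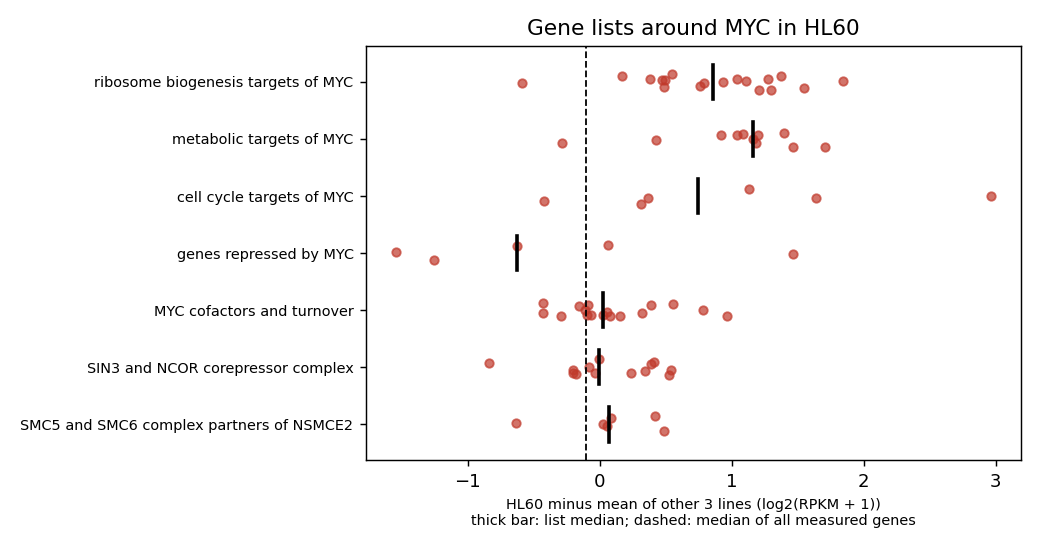
Difference of HL60 from the mean of the other 3 lines on the log2(RPKM + 1) scale for each measured gene (points, spread vertically for display) of 7 lists. The ribosome biogenesis and metabolic targets lie mostly right of the dashed line, with medians of 0.86 and 1.16.

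Set by fusion status, THP-1 and MonoMac-1 were below HL60 and KG1a for 3 of the 10 members (MYC, TRIB1 and MNT), where 19.6% of all measured genes were, and above them for 1 (FAM84B), where 22.1% were. For MNT the MonoMac-1 level lay within counting error of KG1a (0.969 times, 0.907 to 1.03). TRIB1 alone was below by at least 2-fold, as were 4.13% of all genes, and FAM84B above, as were 7.38%, although its MonoMac-1 level rests on 3.94 fragment equivalents. TRIB1 stood at 8.22 RPKM in MonoMac-1 and 1.26 in THP-1, against 19.7 in KG1a and 74.3 in HL60, with a limma difference of -3.11 ± 0.94 (adjusted p = 0.494, unadjusted p = 0.0212). For MYC the difference was -1.22 ± 0.75 (adjusted p = 0.730), and it shrank to -0.18 without HL60. In this fit 0 genes passed after adjustment (11 among genes reaching 5 RPKM), and 767 higher (5.91%) and 342 lower genes (2.64%) had an unadjusted p below 0.05, among them 1 member, TRIB1. Fusion and monocytic lineage cannot be told apart in these lines.

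The genes off chromosome 8 whose pattern lay nearest to that of MYC, by Euclidean distance of log2(RPKM + 1) values centred over the 4 lines, were WASF3 (0.21), IL5RA (0.26), UROC1 (0.27), OSBPL6 (0.30) and SMCHD1 (0.33). The first 4 were under 5 RPKM in HL60 and under 0.2 in the other lines. WASF3, for example, stood at 3.85 RPKM in HL60, against 0.142 in KG1a. Their folds over the other lines were thus far larger than the 4.22 to 5.28 of MYC, and the added 1 RPKM brings them near it. SMCHD1, a chromosomal protein of X inactivation, stood at 77.7 RPKM in HL60, against 22.01 in KG1a, 23.9 in MonoMac-1 and 17.3 in THP-1. With 4 points such likeness is a description only.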

How the data were processed

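For each line 1 headerless table gives coordinates, symbols, RPKM as calculated by the authors and, as deposited, an unlabelled coverage signal in whole numbers. Per the submitters' processing notes the tools and build were CASAVA 1.8.2 and hg19; neither these notes nor the labels name an aligner, annotation, strand setting or filter. The signal was read as bases on the gene, since its commonest low value was 200 in each library, and was divided by 200 for counting intervals (exact Poisson, 95%; ratios by an exact binomial), which rest on that inference; it is weakest for MonoMac-1, where 12.8% of low values were multiples of 100, against 46.0% to 50.7% in the other lines. Overlapping rows (PVT1 and its microRNA genes) may share reads.

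For 28 repeated symbols the row with the highest mean was used. Tests used log2(RPKM + 1), which understates changes of low genes, and limma 3.58.1 in R 4.3.3 (trend, two-sided, Benjamini-Hochberg over 12976 genes, threshold 0.05) with the line as unit, so p-values measure spread between lines. The fit was run on simulated data with a set noise level, which checks the code and not its use on the spread between these lines. The members and lists were chosen with earlier results of these data known. Named genes were the members, list genes past the 2-fold rule (up to 4 a list), line markers and the 5 nearest to MYC; others, including list genes short of that rule, were chosen after their values were seen. Promoter sequences are RefSeq (GRCh38.p14); no printed stretch overlaps an exon of GENCODE 29.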

Additional observations from a re-analysis of the deposited data

How the results depend on the processing

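No paired analysis was possible because each line had 1 library. Of 208 member comparisons recomputed under the alternatives, 199 kept their direction and side of the threshold, 9 reversed and 0 came to pass it (lowest adjusted p = 0.170 by limma). MYC stayed higher in HL60 under every alternative run (1.91 to 3.52 on the log2 scale), as did TRIB1 (2.45 to 4.64). As both were highest in HL60, a changed minimum, added RPKM, left-out line or chromosome 8 rescaling could not turn this direction. The upper ends, 3.52 and 4.64, came with the rescaling. With chromosome 8 of HL60 rescaled, an alternative chosen after the data were seen, PVT1 turned to 0.082 and NSMCE2 to 0.34. In THP-1 and MonoMac-1 against HL60 and KG1a, MXD1 turned to -0.026 under quantile normalization, and leaving out 1 library reversed MXD1 (-0.76 to 0.97), MXI1 (-1.30 to 0.13), NSMCE2 (-0.85 to 0.62), MAX (-1.25 to 0.084) and MGA (-0.12 to 3.26). The cause was not tested. Without KG1a this comparison is that of HL60 against the same lines with the sign turned, so the 208 count the members there in both forms. No member passed in the main fit, so no member could lose its side of the threshold. The 5 RPKM minimum and no minimum left every member difference they kept as it was. The rescaling of chromosome 8 did so for members on other chromosomes. Those comparisons could not reverse.

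The median HL60 difference of the 8q24 interval, -0.38 on 5 genes, reversed to 0.64 with a minimum of 5 RPKM, 0.34 with chromosome 8 rescaled and 0.90 for TRIB1 to PVT1, since it is the value of 1 gene or the mean of 2; without single libraries it ran between -0.57 and -0.0060. It could not be taken over non-members, of which 0 were measured there. The counts of genes 2-fold higher and lower in HL60 (388 and 1108) were 256 and 695 with the 5 RPKM minimum. With no minimum they were 983 and 1882, at a fold of 1.5 936 and 1678, and at a fold of 4 127 and 454. Without single libraries they ran from 631 to 1023 and from 1468 to 2029, largest without KG1a. The rule sets HL60 against every other line, so leaving out a line could only keep or raise both counts. The direction of the changes with the minimum and the fold was fixed likewise. The limma count for THP-1 and MonoMac-1 against HL60 and KG1a was 0, and 11 with the 5 RPKM minimum. Quantile normalization moved the median HL60 difference of all genes to 0.036, against -0.10. The ribosome biogenesis list had 15 to 17 of 18 genes highest in HL60 and the metabolic list 8 to 10 of 11 in the settings run. The 17 came without KG1a, where such a count can also only stay or rise. Counts near 0 in HL60, MonoMac-1 and KG1a limit FAM84B. The lowest depth was in THP-1, where this gene rested on 228 fragment equivalents.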
